A study of Homo sapiens with 3 samples.

Results

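The E2F and RB family was followed here through 10 genes in the 3 libraries of a knockdown experiment on the long noncoding RNA LINC01089. The members were taken by gene symbol, and all 10 had 1 row each among the 22464 genes listed. The family was chosen with earlier results of these data known. The cells were SK-Hep-1, an established line of human origin derived from a liver adenocarcinoma. The shNC library came from cells stably carrying a lentiviral negative control hairpin, and the sh1089-1 and sh1089-2 libraries from cells stably carrying 1 of 2 hairpins against LINC01089. Each group is 1 library, so no difference below has a replicate check or a p-value, and each hairpin line was set against the same shNC library. LINC01089 itself was not analysed here. Whether a line was 1 clone or a pool of cells is not given in the sources used here.

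E2F proteins are transcription factors that switch on the genes of DNA replication, and most bind DNA together with a DP protein. E2F1, E2F2 and E2F3 are known as activators. E2F4 and E2F5 repress in resting cells with the pocket proteins p107 and p130, E2F6 represses without pocket proteins as part of a Polycomb complex, and E2F7 and E2F8 bind without DP and repress E2F target genes late in S phase. RB1 encodes the retinoblastoma protein, which holds the activators in check until cyclin-dependent kinases phosphorylate it, and RBL1 encodes its relative p107. Several E2F genes carry E2F sites in their own promoters and are themselves E2F targets.

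Those promoters are shown first, because the members that stood above the control included genes with and without such a site. The RefSeq promoter table (GRCh38.p14) held windows of 300 bases, from 250 before to 50 after a start, for 8 of the 10 members, but not for E2F5 and E2F8. The only window of RB1 started 172724 bases downstream of the gene's start in GENCODE 29 and was not searched. The letters TTTNNCGC, an E2F site with any base at N, were searched on both strands, with overlapping matches counted. They were found in the windows of 4 of the 7 members searched, E2F1, E2F2, E2F3 and RBL1, beside 13.2% of the 8433 genes with a window that passed the filter on level given below. Counted by window, 6.89% of all 35116 windows held them. The 90 bases before the start are printed 5′ to 3′ on the strand of the gene, with every base of a match in capitals.
E2F1, chr20:33686386-33686475, minus strand: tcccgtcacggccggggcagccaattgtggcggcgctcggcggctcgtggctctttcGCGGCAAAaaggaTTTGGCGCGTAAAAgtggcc
E2F2, chr1:23531234-23531323, minus strand: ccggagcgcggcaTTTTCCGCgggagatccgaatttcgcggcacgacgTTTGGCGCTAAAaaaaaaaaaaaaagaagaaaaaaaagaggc
E2F3, first start, chr6:20401789-20401878, plus strand: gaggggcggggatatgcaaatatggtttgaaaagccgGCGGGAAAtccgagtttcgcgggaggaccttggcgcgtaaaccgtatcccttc
RBL1, chr20:37095998-37096087, minus strand: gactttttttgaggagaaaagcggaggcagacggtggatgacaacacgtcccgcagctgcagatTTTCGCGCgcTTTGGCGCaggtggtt
E2F4, chr16:67192065-67192154, plus strand: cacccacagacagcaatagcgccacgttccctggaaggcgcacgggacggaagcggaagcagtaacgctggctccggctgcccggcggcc
E2F7, chr12:77065570-77065659, minus strand: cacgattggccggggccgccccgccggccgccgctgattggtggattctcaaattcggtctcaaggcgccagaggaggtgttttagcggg

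E2F1 held 4 matches in its 300 bases and 3 of them in the stretch shown, of which the match TTTGGCGC, from 20 to 13 bases before the start, overlaps another on the opposite strand. E2F2 held 3 matches, RBL1 held 2, and E2F3 held 1 at its first start and 0 at its second start 1735 bases further on. E2F4, E2F6 and E2F7 held 0. The letters CCAAT, searched on both strands, occurred 4 times in the window of E2F7, 4 times at the first start of E2F3 and 3 times in that of E2F1, while 34.6% of all windows held them at least once. By gene, 3 of the 7 members searched held CCAAT, beside 43.2% of the 8433 genes with a window that passed the filter, a like share. A match describes these letters only, and no binding was measured.

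The libraries held 10698480 (shNC), 9528312 (sh1089-1) and 8359832 (sh1089-2) reads, recovered from the spacing of the low values. Expression is given as FPKM, fragments scaled by gene length and by the reads of the library. Of 6 hepatocyte markers in the table only SERPINA1 reached a mean of 1 FPKM, and APOA1, TTR and FGB were listed at 0 in each library. Of 9 endothelial markers EGFL7, ENG and CAV1 did, while PECAM1, CDH5 and VWF rested on 4 reads or fewer in any library. In the order shNC, sh1089-1 and sh1089-2, the summed level was 5.19, 6.39 and 8.36 FPKM for the hepatocyte markers and 312, 338 and 345 for the endothelial ones, and both sums were higher in the hairpin libraries. CAV1 alone made up 248, 265 and 278 FPKM of the endothelial sum. The immune markers summed to 2.37 to 2.56 FPKM. The part of these markers in the results below was not tested. A gene is called higher or lower where log2(FPKM + 1) differs from shNC by at least 0.58 (1.5-fold), over the 11198 genes that averaged 1 FPKM or more. All 10 members passed that filter. RBL1, at a mean of 1.13 FPKM, passed it only through sh1089-1, where it is high.

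E2F1, E2F2, E2F7 and E2F8 were called higher in both hairpin libraries, and no member was called lower in either. These are 2 activators and the 2 repressors that do not need DP. In bulk RNA, a larger share of cells that express a gene and more mRNA per cell cannot be told apart. Among all 11198 genes, 5.27% were called higher and 5.83% lower in sh1089-1, 4.89% and 5.63% in sh1089-2, and 3.08% higher and 2.79% lower in both. Among the 10114 of them that code for protein and rest on 100 reads or more, a filter chosen after the data were seen, 2.70% were higher in both. The median difference over the 10 members was 0.41 in sh1089-1 and 0.06 in sh1089-2 on the log2(FPKM + 1) scale, beside −0.03 and −0.04 over all genes.

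**Figure D1:**
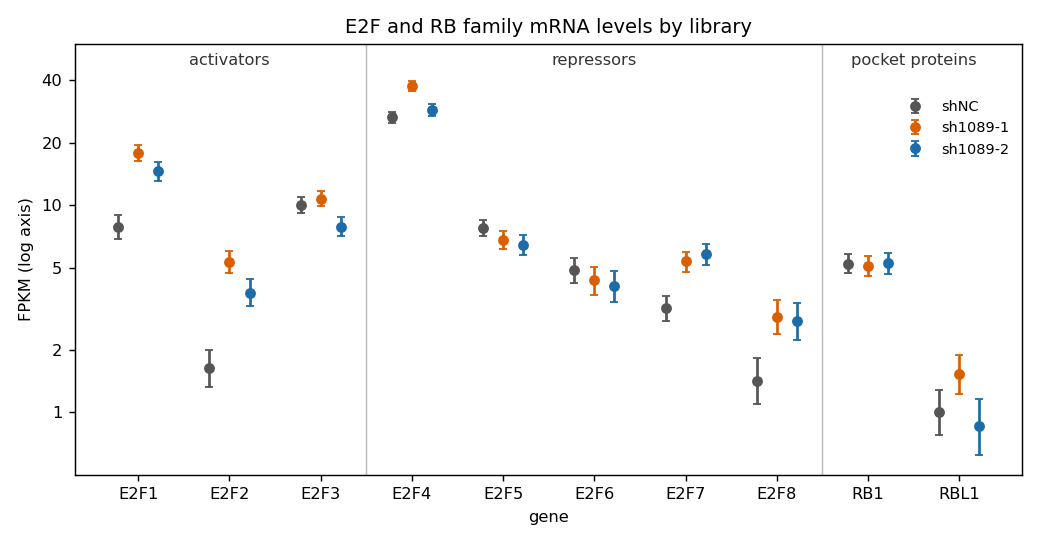
FPKM of the 10 members (log axis) in each library. Points are single libraries and bars are exact 95% Poisson intervals of the reads, which cover counting error only. E2F1, E2F2, E2F7 and E2F8 sit higher in both hairpin libraries than in shNC, and the RB1 points lie between 5.11 and 5.25 FPKM.

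The activators came apart. E2F1, whose protein drives entry into S phase, stood at 7.85 FPKM in the control, 17.9 in sh1089-1 and 14.6 in sh1089-2. Both hairpin libraries thus stood well above the control, and sh1089-1 was the highest. The ratio to shNC was 2.28 in sh1089-1 (95% counting interval 1.94 to 2.68) and 1.86 in sh1089-2 (1.56 to 2.21). E2F1 (ENSG00000101412) is a minus-strand gene of chromosome 20, from 33675683 to 33686404 in GRCh38. Its difference ranked at percentile 99.01 of all genes in sh1089-1 and at 97.4 in sh1089-2. All 3 of its read counts are even, so a shorter gene length with proportionally fewer reads fits its FPKM as well, and its intervals may be too narrow.

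E2F2, the other activator that was higher, was scarce in the control. Its levels were 1.64, 5.34 and 3.79 FPKM in the same order, on 96, 278 and 173 reads. Its ratios to shNC were 3.25 (2.57 to 4.14) and 2.31 (1.79 to 2.99), the largest of the 10 members in each hairpin library. E2F2 spans chromosome 1 from 23506430 to 23531220 and is read from the minus strand.

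E2F3 did not share that pattern. Its first promoter holds an E2F match, and any bearing of the match on its level was not tested. E2F3 had 10.03 FPKM in shNC, against 10.8 with the first hairpin and 7.88 with the second, so the hairpin libraries lay on opposite sides of the control. The ratio was 1.07 in sh1089-1, with a counting interval that includes 1 (0.950 to 1.21), and 0.786 in sh1089-2 (0.685 to 0.901). The gene gives a long and a short protein, E2F3a and E2F3b, from separate starts, and a value per gene adds them up. E2F3 was the most abundant activator in shNC, and E2F1 took that place in each hairpin library, with counting intervals of the levels that do not overlap. The E2F1 intervals may be too narrow, as given above, so the gap between the intervals in shNC is not settled.

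Among the repressors, E2F7 and E2F8 were higher with either hairpin. E2F7 stood at 3.18 FPKM in the control, 5.36 with the first hairpin and 5.80 with the second. The hairpin libraries lay close together, and the ratios to shNC were 1.68 (1.41 to 2.01) and 1.82 (1.53 to 2.18). E2F8 had 1.42, 2.89 and 2.75 FPKM on 63, 114 and 95 reads. Its ratios of 2.03 (1.48 to 2.81) and 1.93 (1.39 to 2.70) again put both hairpin libraries above shNC. These calls lie close to the threshold, with differences of 0.60 and 0.70 for E2F7 and 0.68 and 0.63 for E2F8. Both are minus-strand genes, E2F7 on chromosome 12 (77021247 to 77065580) and E2F8 on chromosome 11 (19224063 to 19241620).

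The repressors that work with pocket proteins were not called. E2F4, the most abundant member in each library, was at 26.6 FPKM in the control, 37.5 in sh1089-1 and 28.9 in sh1089-2. Only sh1089-1 stood apart, with a ratio of 1.41 (1.30 to 1.53) beside 1.09 (0.992 to 1.19) in sh1089-2. E2F4 in sh1089-1, at a difference of 0.48, was the member nearest to the threshold from below. E2F5 had 7.77, 6.81 and 6.44 FPKM. It was lowest in sh1089-2, at a ratio of 0.828 (0.718 to 0.955), and in sh1089-1 the ratio was 0.875 (0.765 to 1.00).

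E2F6, which represses germ line genes in somatic cells, had 4.85, 4.34 and 4.06 FPKM. Its ratios were 0.894 (0.726 to 1.10) and 0.837 (0.670 to 1.04), so no difference could be made out at this depth. Reads of E2F6 could be shared with its processed pseudogenes. E2F6P1 was listed at 4.39, 1.69 and 0.803 FPKM, which is 35, 12 and 5 reads beside 211, 168 and 138 for E2F6, so how such reads were assigned bears on the E2F6 values.

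RB1 differed least of the members. The levels were 5.22, 5.11 and 5.25 FPKM in shNC, sh1089-1 and sh1089-2, with ratios of 0.979 (0.839 to 1.14) and 1.01 (0.858 to 1.18). A change within these bounds could not be seen at this depth. RBL1, the p107 gene, was the scarcest member and differed between the hairpins. It had 1.00, 1.53 and 0.864 FPKM on 64, 87 and 43 reads, so sh1089-1 lay above shNC (1.53, 1.09 to 2.14) and sh1089-2 below it (0.860, 0.570 to 1.29). With 1 added to the FPKM the difference in sh1089-1 was 0.34, short of a call. RBL1 holds 2 E2F matches before its start, as shown above.

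**Figure D2:**
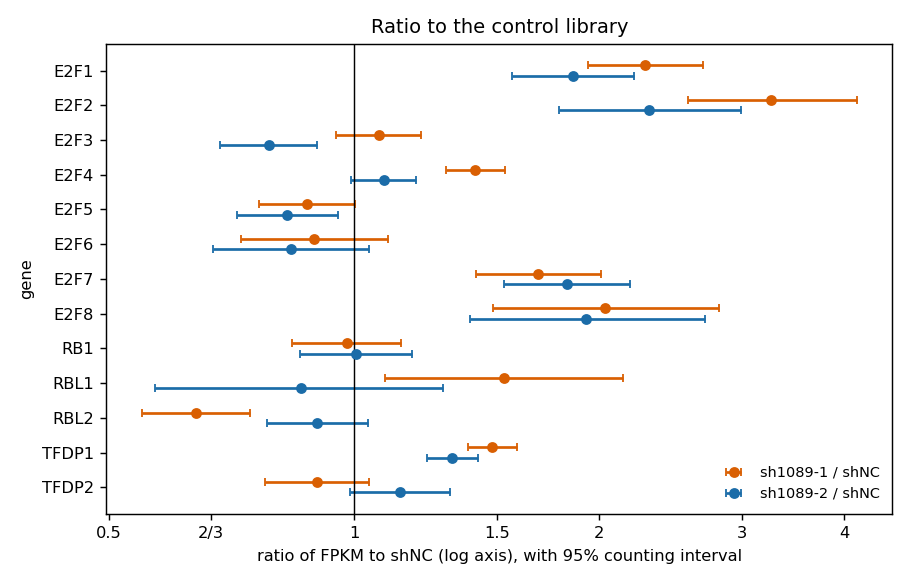
Ratio of FPKM to shNC (log axis) for the 10 members and for RBL2, TFDP1 and TFDP2, with exact 95% counting intervals. E2F1, E2F2, E2F7 and E2F8 lie above 1 in both hairpin libraries. E2F1, E2F2, E2F3, E2F4, RBL1 and RBL2 lie further apart between the hairpins than E2F5, E2F6, E2F7, E2F8 and RB1. TFDP1 lies above 1 with both hairpins, and TFDP2 below 1 with the first and above 1 with the second.

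Counting intervals of this kind leave out 1 for many genes. In sh1089-1 they did so for 6 of the 10 members and for 52.5% of all genes, and in sh1089-2 for 6 of the 10 and for 49.6%. These intervals hold counting error only and no spread between cultures. The 6 members in sh1089-1 include RBL1, which passed the filter on level only through that library.

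The partners were examined next, from lists chosen with earlier results of these data known. TFDP1, which encodes the DP1 partner of E2F1 to E2F6, measured 35.7 FPKM in the control and 52.8 and 47.2 with the hairpins, at ratios of 1.48 (1.38 to 1.59) and 1.32 (1.23 to 1.42). It stood above the control in both but was not called. TFDP2 had 3.29, 2.96 and 3.75 FPKM, on both sides of the control. RBL2, which encodes p130, the pocket protein of resting cells, had 6.04, 3.87 and 5.45 FPKM. Its ratio was 0.640 (0.549 to 0.745) in sh1089-1 and 0.901 (0.781 to 1.04) in sh1089-2. RBL2 was not called, with differences of −0.53 and −0.13. The added 1 decides this in sh1089-1, where the ratio of 0.640 is beyond 1.5-fold.

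Adding the FPKM over roles shows the make-up of E2F mRNA. The activators summed to 19.5, 34.0 and 26.3 FPKM in shNC, sh1089-1 and sh1089-2. E2F4 to E2F8 summed to 43.8, 56.9 and 48.0 FPKM. The activators were therefore 30.8%, 37.4% and 35.4% of E2F mRNA, and both hairpin libraries had the larger share. E2F1 alone was 12.4% in shNC, 19.7% in sh1089-1 and 19.6% in sh1089-2, while E2F3 was 15.8%, 11.8% and 10.6%. E2F7 and E2F8 together had 4.60, 8.25 and 8.55 FPKM. E2F4, E2F5 and E2F6 together had 39.2, 48.6 and 39.4 FPKM, so shNC and sh1089-2 were alike in these and sh1089-1 was higher. The pocket protein genes RB1, RBL1 and RBL2 summed to 12.3, 10.5 and 11.6 FPKM, and RBL1 was 8.19%, 14.6% and 7.47% of that sum. These are sums over single libraries of mRNA levels, not of proteins.

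**Figure D3:**
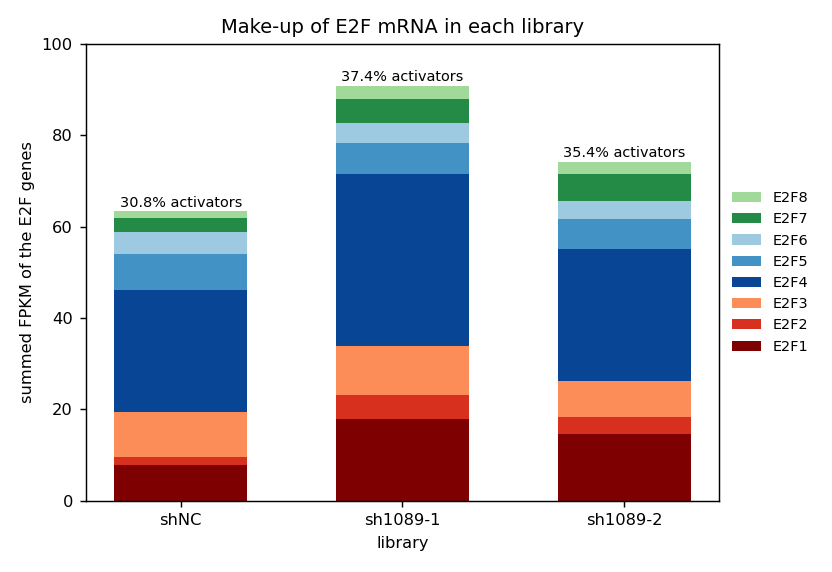
Summed FPKM of the 8 E2F genes in each library, stacked by gene, with the share of E2F1, E2F2 and E2F3 above each bar. The bars reach 63.4, 90.9 and 74.2 FPKM from left to right, and the activator share is 30.8%, 37.4% and 35.4%.

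In order of level, shNC ran E2F4, E2F3, E2F1, E2F5, RB1, E2F6, E2F7, E2F2, E2F8 and RBL1. With the E2F1 reads as recovered, E2F1 and E2F5, RB1 and E2F6, E2F2 and E2F8, and E2F8 and RBL1 had overlapping counting intervals there. In sh1089-1 the order was E2F4, E2F1, E2F3, E2F5, E2F7, E2F2, RB1, E2F6, E2F8 and RBL1, and E2F7, E2F2, RB1 and E2F6 overlapped each with the next. In sh1089-2 it was E2F4, E2F1, E2F3, E2F5, E2F7, RB1, E2F6, E2F2, E2F8 and RBL1, where neighbours overlapped from E2F3 down to E2F8. E2F7 was thus rank 7 in shNC and rank 5 in each hairpin library, while E2F4 stayed first and RBL1 last in all 3. With the gene lengths of GENCODE 29, E2F2 and E2F7 changed places in sh1089-1, which put E2F7 at rank 6 there.

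The hairpin libraries were also set against each other, which does not involve shNC. Of the members, 5 were lower in sh1089-2 than in sh1089-1 with a counting interval that leaves out 1, as were 20.2% of all genes. They are E2F1 at a ratio of 0.816 (0.706 to 0.943), E2F2 at 0.709 (0.583 to 0.861), E2F3 at 0.733 (0.638 to 0.841), E2F4 at 0.772 (0.707 to 0.842) and RBL1 at 0.563 (0.382 to 0.821). The place of E2F1 among them is not settled, as its interval may be too narrow for the reason given above. RBL1 passed the filter on level only through sh1089-1, so its place among them is in part built in. In either direction 37.7% of all genes had such an interval. E2F5, E2F6, E2F7, E2F8 and RB1 had ratios from 0.936 to 1.08, with intervals that include 1. E2F2, E2F3, E2F4 and RBL1 were thus lower with the second hairpin than with the first, while E2F7 and E2F8 were not apart at this depth. For E2F1 the ratio was also below 1, with the limit given above. In log2(FPKM + 1) no member passed 1.5-fold, as 2.47% of all genes did upward and 2.30% downward. The added 1 decides this for RBL1, which lies near 1 FPKM: its difference was −0.44 on that scale, while its ratio of 0.563 is beyond 1.5-fold.

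**Figure D4:**
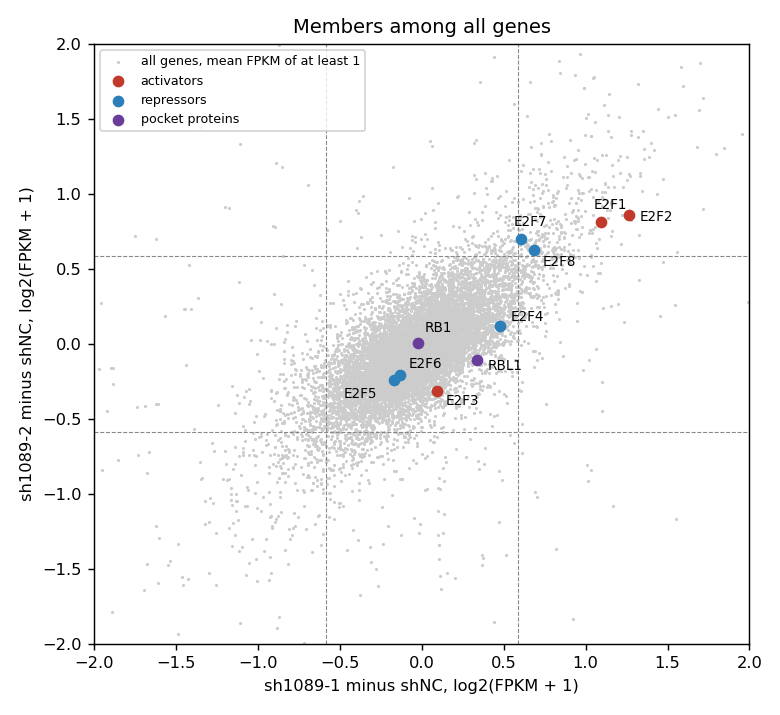
Difference from shNC in log2(FPKM + 1) for sh1089-1 (x axis) and sh1089-2 (y axis). Grey points are all genes that passed the filter, dashed lines mark 1.5-fold, and 105 genes lie outside the range drawn. E2F1, E2F2, E2F7 and E2F8 lie in the upper right corner. Both axes share the shNC library, so the slope of the cloud is in part built in.

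Genes that act on RB were examined in turn. As the share for each list below, 3.08% of all 11198 genes were higher in both hairpin libraries and 2.79% lower. Of 9 cyclin and kinase genes that act on RB, CCNA2, CDK2 and CCNE2 were called higher in both hairpin libraries and none was lower, with medians of 0.41 and 0.45. CDK2, the kinase partner of cyclins E and A, had 17.2, 27.5 and 32.2 FPKM, in the order control, first hairpin, second hairpin. CCNA2, cyclin A2, had 13.9, 27.8 and 25.2 FPKM. CCNE2, a cyclin E gene, had 1.17, 2.39 and 2.26 FPKM and the other one, CCNE1, 8.93, 11.6 and 9.72. CCND1, cyclin D1, had 83.3, 111 and 102 FPKM, CDK4 71.1, 92.6 and 74.3, and CDK6 4.52, 4.55 and 3.43, none of them called. CCND3, cyclin D3, had 16.1, 26.3 and 22.3 FPKM and was called higher in sh1089-1 only. CCND2, cyclin D2, had 0.678, 1.14 and 1.57 FPKM and was called higher in sh1089-2 only. CCND2 passed the filter only through the hairpin libraries, where it is high.

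Of 5 measured CDK inhibitor genes, CDKN2C, which encodes p18, was called higher in both, at 5.23, 11.8 and 9.39 FPKM, and none was lower in both. The medians were −0.19 and −0.22. CDKN1A, the p21 gene, had 339, 206 and 263 FPKM and was called lower in sh1089-1 only. CDKN1C, the p57 gene, had 2.11, 0.805 and 1.40 FPKM on 56, 19 and 29 reads and was also called lower there only. CDKN2D, the p19 gene, had 7.09, 6.77 and 11.2 FPKM and was called higher in sh1089-2 only. CDKN1B, the p27 gene, had 14.98, 13.0 and 12.7 FPKM. CDKN2A, which encodes p16 and p14ARF, and CDKN2B, which encodes p15, were listed at 0 in all 3 libraries.

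Known targets of the activators stood higher as a group. Of 32 genes of the G1-S transition, all of which passed the filter, 18 were called higher in both hairpin libraries and none was lower. Over all genes 3.08% were higher in both and 2.79% lower. The medians of the 32 genes were 0.79 and 0.69. FEN1, a nuclease of the lagging strand, had 14.2, 41.1 and 31.6 FPKM. RRM2, the small ribonucleotide reductase subunit, TK1, thymidine kinase, and MCM7, of the replicative helicase, were the others with the largest differences. Of the 27 targets with a promoter window, 17 held TTTNNCGC, beside 13.2% of the 8433 genes with a window that passed the filter. The list was made of known E2F targets, so a larger share with these letters was in part built in.

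The other lists were split. Of 7 measured genes of the MuvB complex and its MYB and FOXM1 partners, MYBL2 and FOXM1 were called higher in both, and the medians were 0.08 and 0.07. FOXM1, a factor of mitotic genes, had 18.2, 42.2 and 40.8 FPKM. Of 11 measured partners of E2F6 in its Polycomb complex, none was called in either direction, with medians of −0.01 and −0.28. None of the 10 germ line targets of E2F6 reached the filter, and 6 were in the table. Of 13 corepressor genes that bind RB, SUV39H1, a histone methyltransferase, and DNMT1 were higher in both, at 5.36, 12.8 and 12.4 FPKM and at 11.7, 23.9 and 23.7 FPKM, while the medians were −0.08 and −0.05.

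Of 8 measured genes for the turnover of E2F proteins, CDC20 and CCNF were higher in both, with medians of 0.45 and 0.44. CCNF, cyclin F, a ubiquitin ligase subunit that targets E2F proteins, had 7.57, 15.6 and 14.9 FPKM. SKP2, another such subunit, had 6.53, 9.41 and 8.85 FPKM and was not called. Of 8 apoptosis genes known as E2F targets, TP73 and PMAIP1 were higher in both and BBC3 was lower, with medians of −0.11 and −0.07. TP73, the p53 relative p73, rested on 34, 134 and 76 reads at 0.470, 2.08 and 1.34 FPKM. It passed the filter only through the hairpin libraries, where it is high, so its call supports nothing about the list. BBC3, the gene of the cell death protein PUMA, had 10.1, 6.01 and 5.98 FPKM.

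**Figure D5:**
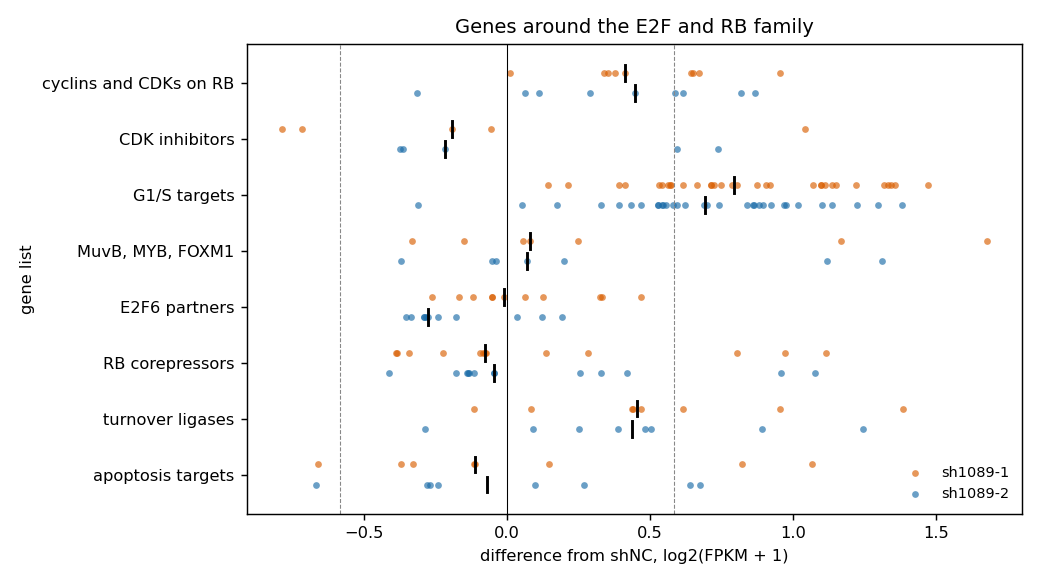
Difference from shNC in log2(FPKM + 1) for each measured gene of 8 lists around the family. Each point is 1 gene in 1 hairpin library, black bars are medians and dashed lines mark 1.5-fold. The G1-S targets have medians of 0.79 and 0.69, and the other medians lie between −0.28 and 0.45.

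The promoter letters were then read against the differences. Of 8433 genes of the 11198 that matched a promoter window, 1115 held TTTNNCGC, and 4.30% of these were called higher in both hairpin libraries, beside 2.25% of the 7318 without it. For CCAAT the shares were 3.59% and 1.71%. For TTTGAA, the letters of a CHR site, they were 5.39% and 2.11%, the widest gap among these letters. Of the 7 members searched, E2F1 and E2F2 held TTTNNCGC and were called higher, and E2F3 and RBL1 held it and were not. E2F7 did not hold it and was called higher, and E2F4 and E2F6 did not hold it and were not called. Only E2F3, at its first start, held TTTGAA.

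The genes whose pair of differences lay nearest to that of E2F2, the member with the largest mean difference, were RECQL4, MCM5 and CDC6. They were sought among 6109 other protein-coding genes that averaged 5 FPKM or more, and their distances on the log2(FPKM + 1) scale were 0.04, 0.04 and 0.12. RECQL4 had 11.2, 28.5 and 20.6 FPKM. Only 2 genes lay within 0.10 of E2F2. E2F5 had the lowest mean difference, and TRAF2, EML4 and KLHL17 were nearest to it, but 349 genes lay within 0.10, so its pattern was a common one. A likeness over 3 libraries is a description of them only.

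Position was examined as well. The 50 expressed genes around each member had median differences from −0.25 to 0.06 in sh1089-1 and from −0.36 to 0.09 in sh1089-2. E2F8 lay in the stretch with the lowest medians, −0.25 and −0.36, and was itself 0.68 and 0.63 above shNC. The stretch around E2F1 had medians of 0.06 and 0.09. On the other strand, C8orf59 overlaps E2F5 at 14.7, 14.5 and 10.4 FPKM. Whether counting used the strand is not given in the sources used here, so part of the E2F5 reads may belong to it. The other-strand genes inside RB1 rested on 19 reads or fewer in any library where they were listed.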

How the data were processed

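The authors' deposited table gives FPKM for 22464 Ensembl identifiers in 3 libraries, 1 per group. Per the submitters' processing notes, FastQC, StringTie and build GRCh38 were used. Their versions, the aligner and the annotation release were not given in the sources used here. Per the labels' protocols, mRNA was enriched and libraries were strand-specific. Symbols were found for 22375 identifiers. Library totals and whole reads were recovered from the spacing of low FPKM values with GENCODE 29 exon lengths, which gave whole reads (within 0.001 plus 2e-07 of the reads) for 99.9% of 19204 genes. The search was tested on simulated data in which every gene had its GENCODE 29 length. In the real data 62.4% of recovered lengths equalled that length. Recovery of reads at other lengths, as for most members, was not tested. Intervals are exact Clopper-Pearson (ratios) or Poisson (levels) at 95% and hold counting error alone. No test was run, as each group is a single library. Differences are in log2(FPKM + 1), which understates low genes. A call needs 1.5-fold and an average of 1 FPKM or more. All members are named. Of each list, at most 4 genes called in both hairpin libraries were named, plus TFDP1, TFDP2, RBL2, CCND1, CDK4, CDK6, CCNE1, CCNE2, CDKN1A, CDKN1B, CDKN2A and SKP2. The genes CCND2, CCND3, CDKN1C, CDKN2B, CDKN2D, LIN52 and the overlapping and pseudogene rows were named after their values were seen. Members and lists were chosen with earlier results of these data known. Alternatives changed the pseudocount, scaling, filter and threshold. Python 3.11.15, numpy 2.4.6, pandas 2.3.3, scipy 1.17.1 and matplotlib 3.10.9 were used.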

Additional observations from a re-analysis of the deposited data

How the results depend on the processing

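The 4 members called higher stayed 4 with pseudocounts of 0.1 and 0.5, after rescaling to TPM, after centring on the median of all genes, without a filter and over the protein-coding genes that rest on 100 reads or more. At a mean of at least 5 FPKM 1 was left, since E2F2, E2F7 and E2F8 fall below that mean, and at 2-fold 0 were left, as E2F1 and E2F2 pass it in sh1089-1 only. The added 1 decides this for E2F2, whose ratio of FPKM to shNC in sh1089-2 was 2.31. At 2-fold the cyclin and kinase list, the CDK inhibitors and both directions of the apoptosis list also came to 0. The G1-S targets came to 6, and the turnover genes and the RB corepressors to 1 each, while 0.723% of all genes were higher in both. At a lower threshold of 0.32 in log2(FPKM + 1) the G1-S targets came to 29, the turnover genes and the cyclin and kinase list to 5 each, and TFDP1 made 1 in its list, while 2 CDK inhibitors (CDKN1A and CDKN1C) and 1 MuvB gene (LIN52) became lower; 8.15% of all genes were higher in both at that threshold, and 1.64% at 1.5-fold without a filter. At a mean of at least 5 FPKM 1 apoptosis gene stayed higher. The 18 G1-S targets higher in both became 25 after rescaling to TPM and 24 with a pseudocount of 0.1. Of all genes, 4.48% and 4.34% were higher in both under these settings. Every member kept the sign of its difference under the 4 changes of pseudocount and scale, except RB1 in sh1089-1, which ranged from −0.03 to 0.00. The E2F2 difference in sh1089-1 grew from 1.26 to 1.64 with a pseudocount of 0.1. No paired analysis was possible because each group is 1 library. Reads limit RBL1 (43 in sh1089-2) and E2F8 (63 in shNC) most. The E2F1 reads rest on a length of 2690 bases, the fitting one nearest to GENCODE 29 and 7.47% above it.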
